A study of Mus musculus with 13 samples.

Results

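Fatty acid oxidation was described here through 31 genes, the rows of the deposited tables whose symbol was on a fixed list of enzymes, carriers and 1 regulator of mitochondrial and peroxisomal fat burning. All 31 were found among the 22609 genes of the fat table and among the 22609 genes of the tumour table. By the site of their products, 19 belong to the mitochondrion, 8 to the peroxisome and 3 to both, and Ppara is a nuclear regulator. The RNA came from 13 libraries of C57BL/6 mouse tissue: visceral fat after a high-fat diet (HFD) with 4 libraries labelled as a fat-specific PD-L1 knockout (KO) and 3 from the wild type (WT), and transplanted E0771 mammary tumours, a mouse breast cancer line, from 3 KO and 3 WT hosts. All fat donors had the same diet label. The Cre line or promoter behind the knockout and the age of the mice are not given in the sources used here, and the labels do not say that each library is 1 animal, so p-values reflect only how far these libraries scatter, which may be technical.

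The 7 fat libraries held 29362788 to 41534662 recovered gene reads and the 6 tumour libraries 22834259 to 34706555 gene reads. Cd274, which encodes PD-L1, had 547.5, 521.1, 563.8 and 543.2 normalised reads in KO fat, against 504.1, 738.6 and 527.9 in WT fat, with a log2 fold change of -0.10 (SE 0.15, limma adjusted p = 0.66). The KO values lay within the WT range, so Cd274 did not check the labels, on which every direction below rests. The fat values are counts that the authors scaled by library, called normalised reads here. The WT fat columns are numbered 1, 3 and 4 in the table and are named so.

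Fatty acids enter mitochondria as carnitine esters, made by carnitine palmitoyltransferase of the outer membrane and turned back into acyl-CoA by that of the inner membrane. In the matrix each turn of beta-oxidation oxidises, hydrates, oxidises again and cleaves the chain, and the electrons of the first oxidation pass to the respiratory chain through the electron transfer flavoprotein. Peroxisomes import very long and branched chains through their own transporters and shorten them with a parallel set of enzymes. The nuclear receptor PPAR-alpha, encoded by Ppara, switches on many of these genes in liver and brown fat, where fat burning is intense. White visceral fat mainly stores lipid, but its adipocytes also carry mitochondria and peroxisomes.

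Promoter sequence is shown for 5 members whose fat values lay on opposite sides of WT: Cpt1a and Hadha had values above WT in every KO library, and Echs1, Etfa and Ehhadh values below. Each line runs 5′ to 3′ on the gene's strand, from 250 bases before to 50 after the RefSeq start site on GRCm38.p6, and capitals mark matches to the element of PPAR and RXR, AGGTCA repeated head to tail with any 1 base between the copies, with at most 3 mismatches on either strand.
Cpt1a, chr19:3323051-3323350, plus strand: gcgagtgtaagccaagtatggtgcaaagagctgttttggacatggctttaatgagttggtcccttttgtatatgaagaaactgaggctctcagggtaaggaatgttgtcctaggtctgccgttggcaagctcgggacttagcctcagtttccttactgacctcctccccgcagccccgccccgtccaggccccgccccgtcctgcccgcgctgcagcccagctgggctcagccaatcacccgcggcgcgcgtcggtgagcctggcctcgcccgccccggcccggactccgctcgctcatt
Hadha, chr5:30154931-30155230, minus strand: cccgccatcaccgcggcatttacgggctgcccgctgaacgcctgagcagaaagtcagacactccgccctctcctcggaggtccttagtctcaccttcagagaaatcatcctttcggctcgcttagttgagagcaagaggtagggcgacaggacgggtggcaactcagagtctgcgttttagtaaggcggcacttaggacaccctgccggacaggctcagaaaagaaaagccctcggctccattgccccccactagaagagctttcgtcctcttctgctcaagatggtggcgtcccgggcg
Echs1, chr7:140116372-140116671, minus strand: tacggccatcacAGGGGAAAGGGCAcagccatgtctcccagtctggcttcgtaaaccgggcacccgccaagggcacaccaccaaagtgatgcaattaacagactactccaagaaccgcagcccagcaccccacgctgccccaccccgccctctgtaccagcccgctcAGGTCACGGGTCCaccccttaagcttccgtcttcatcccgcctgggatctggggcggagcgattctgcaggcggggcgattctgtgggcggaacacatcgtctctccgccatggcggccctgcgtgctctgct
Etfa, chr9:55512194-55512493, minus strand: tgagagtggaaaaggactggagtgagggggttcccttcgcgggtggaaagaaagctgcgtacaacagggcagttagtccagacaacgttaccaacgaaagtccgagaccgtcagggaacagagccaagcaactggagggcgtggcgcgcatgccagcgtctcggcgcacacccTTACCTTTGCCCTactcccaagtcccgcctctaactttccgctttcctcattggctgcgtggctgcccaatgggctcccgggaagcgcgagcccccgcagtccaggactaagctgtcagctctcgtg
Ehhadh, chr16:21787785-21788084, minus strand: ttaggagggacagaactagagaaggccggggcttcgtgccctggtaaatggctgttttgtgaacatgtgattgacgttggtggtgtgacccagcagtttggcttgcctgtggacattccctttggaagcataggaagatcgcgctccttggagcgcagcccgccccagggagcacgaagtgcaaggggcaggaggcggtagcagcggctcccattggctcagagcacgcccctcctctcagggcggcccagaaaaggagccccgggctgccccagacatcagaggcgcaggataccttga
The Echs1 window held 2 matches, the closer with 2 mismatches at -83, and the Etfa window held 1 with 2 mismatches at -77 on the reverse strand. No match was found in these letters of Cpt1a, Hadha or Ehhadh. The Cpt1a window lies wholly inside the span that GENCODE gives the gene, which starts at chr19:3322334. Sequence before that start was not searched. RefSeq promoters were at hand for 25 of the 31 members, and 7 of the 25 (28.0%) held the element in their first promoter, against 24.4% of 27025 genes. Of the 17 with a promoter that fell in fat, 5 held the element and 12 did not, and of the 2 that rose, 0 held it. TCAAGGTCA, the oestrogen-related receptor element, was in 0 of the 25 first promoters with at most 1 mismatch on either strand, against 7.43% of all 27025. A match is a description of the sequence only.

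In visceral fat, most genes of fatty acid oxidation were lower in KO libraries. Of 30 members tested with limma, 21 fell, 2 rose and 7 did not pass an adjusted p of 0.05. Acox2 was too low to be tested. Over all 14455 genes tested, 34.2% passed, 17.4% as lower and 16.8% as higher. The median log2 fold change of the 30 members was -0.56, with 86.7% of them below 0, whereas the median of all tested genes was -0.00 with 50.03% below 0. Among the 21 that fell, the level was 1.28 to 3.47 times lower in KO fat, with a median of 1.72 times.

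KO and WT values did not overlap for 20 of the 21 genes that fell, Acaa1a being the exception, and 22.1% of all tested genes lay wholly lower in KO without overlap. Cpt1a, Acox3 and Hadha were the 3 members wholly higher in KO, as were 21.6% of all tested genes. A fall of at least 2-fold was called for 6 members, Acad11, Echs1, Eci1, Abcd2, Ehhadh and Ppara, against 7.9% of all tested genes. By site, 12 of the 19 tested mitochondrial members fell, as did 5 of 7 tested peroxisomal ones and 3 of 3 found in both. The count of 23 called members dropped to 15 without KO replicate 2, to 15 without KO replicate 4 and to 14 without the WT column numbered 3. The count over all tested genes, 4947 with every fat library, was also lowest without that column, as the last section gives. Whether members lost more calls than other genes was not tested. Of the 21 that fell, 14 were called in all 7 fits that left out 1 library: Cpt2, Acadm, Acads, Acad11, Etfa, Echs1, Hadh, Eci1, Decr1, Abcd2, Abcd3, Ehhadh, Hsd17b4 and Ppara. The share of all called genes that held in the same 7 fits is not given here. The 14 therefore cannot be read as a trait of the members.

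**Figure D1:**
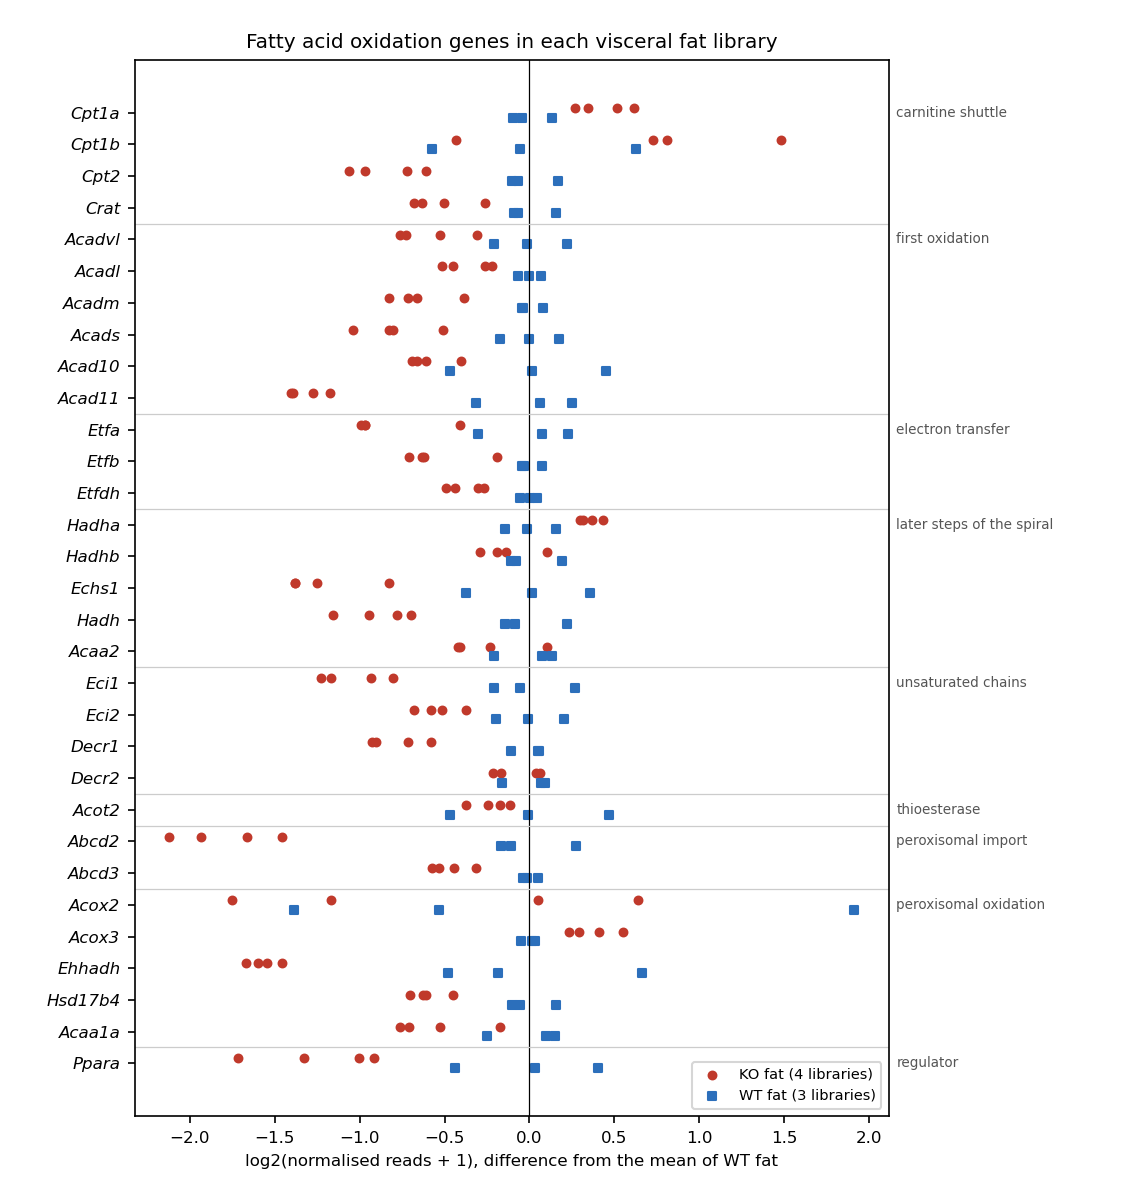
Each point is 1 visceral fat library, placed by its log2(normalised reads + 1) minus the mean of the 3 WT libraries, for the 31 genes grouped by role, with 4 KO libraries as circles and 3 WT libraries as squares. KO circles lie left of all WT squares for 20 genes that fell, from Abcd2 at the far left to Acadl, while Cpt1a, Acox3 and Hadha lie right of them.

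The carnitine shuttle was split. Cpt1a, which makes acylcarnitine at the outer membrane and is the regulated entry step, had 10119, 12891, 10673 and 12028 normalised reads in KO fat, against 9227, 8163 and 7868 in WT fat. Every KO library was above every WT library, and Cpt1a rose (log2 fold change 0.44, SE 0.13, limma adjusted p = 0.0344). This call was lost when KO replicate 2 or 4 or WT column 3 or 4 was left out, with an adjusted p of up to 0.126. Cpt2, the inner-membrane enzyme that acts after it, had 2773, 2187, 2989 and 2335 in KO fat, against 4256, 4367 and 5121 in WT fat. Cpt2 fell (log2 fold change -0.84, SE 0.14, limma adjusted p = 0.00326), with no KO value reaching the lowest WT value. The ratio of Cpt1a to Cpt2 reads was therefore 3.57 to 5.89 in KO fat and 1.54 to 2.17 in WT fat.

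Crat, carnitine acetyltransferase, which buffers acetyl-CoA with carnitine, had 6056, 5850.4, 7815 and 6613 normalised reads in KO fat, against 8947, 8815 and 10449 in WT fat. It fell (log2 fold change -0.52, SE 0.14, limma adjusted p = 0.021), a call lost when KO replicate 2 or 4 or WT column 3 or 4 was left out. Cpt1b, the muscle form of the outer-membrane enzyme, was near the floor, with 4.42, 19.4, 11.8 and 11.1 in KO fat, against 6.02, 3.91 and 10.3 in WT fat. The groups overlapped and the log2 fold change of 0.65 (SE 0.56) did not pass (limma adjusted p = 0.402). Cpt1a lies at chr19:3322334-3385733 on the plus strand of GRCm38. Per kilobase of exon, it exceeded Cpt1b 432 times in KO fat and 550 times in WT fat. These ratios rest on 4 to 18 recovered reads of Cpt1b per library and on a gene that another overlaps whole, so they are rough.

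The acyl-CoA dehydrogenases, which carry out the first oxidation on chains of different length, all had lower means in KO fat, and 5 of 6 passed. Acad11, which acts on long chains, had the largest fall of them, with 2336, 2349, 2742 and 2553 normalised reads in KO fat, against 4977, 6458 and 7344 in WT fat. The KO values were close together and the highest was far below the lowest WT value, a log2 fold change of -1.31 (SE 0.15, limma adjusted p = 0.00102). Acads, for short chains, had 2597 to 3756 in KO fat and 4730 to 6027 in WT fat, a fall of 0.79 on the log2 scale (SE 0.15, limma adjusted p = 0.00501). Acadm, for medium chains, had 7579, 7008, 9504 and 7855 in KO fat, against 12066, 12091 and 13159 in WT fat, a fall of 0.65 (SE 0.14, limma adjusted p = 0.00785).

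The enzymes for longer chains followed. Acadvl, for very long chains, had 4226 to 5775 normalised reads in KO fat and 6201 to 8342 in WT fat (log2 fold change -0.58, SE 0.15, limma adjusted p = 0.0207). Acadl, for long chains, had 7097 to 8719 in KO fat and 9695 to 10652 in WT fat (log2 fold change -0.36, SE 0.12). Its limma adjusted p of 0.0499 sat at the threshold and was lost in 6 of the 7 fits without 1 library, where it reached 0.145. Acad10, a relative of Acad11, had 193, 187, 223 and 182 in KO fat, against 213, 299 and 404 in WT fat. Its groups overlapped and its log2 fold change of -0.59 (SE 0.22) did not pass (limma adjusted p = 0.0707).

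Electron transfer from these dehydrogenases uses Etfa and Etfb, the subunits of the electron transfer flavoprotein, and Etfdh, which hands the electrons to ubiquinone. All 3 fell. Etfa had 4304, 2926, 2924 and 2878 normalised reads in KO fat, against 4645, 6030.0 and 6687 in WT fat (log2 fold change -0.83, SE 0.19, limma adjusted p = 0.0102). Etfb had 5251, 3857, 3891 and 3663 in KO fat, against 5809, 6306 and 5846 in WT fat (log2 fold change -0.54, SE 0.14, limma adjusted p = 0.0207). In both genes KO replicate 1 stood well above the other KO libraries yet below all WT libraries. Etfdh had 3208 to 3759 in KO fat and 4352 to 4667 in WT fat, a fall of 0.38 on the log2 scale (SE 0.10, limma adjusted p = 0.0242). The Etfb call was lost when KO replicate 2 or 4 or WT column 3 was left out, and the Etfdh call when any of these or WT column 1 was.

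The later steps of the spiral did not move as 1 group. Echs1, the short-chain enoyl-CoA hydratase, had 4000.4, 2719, 2981 and 2721 normalised reads in KO fat, against 5483, 7173 and 9078 in WT fat (log2 fold change -1.21, SE 0.20, limma adjusted p = 0.0032). Hadh, the short-chain hydroxyacyl-CoA dehydrogenase, had 4649 to 6389 in KO fat and 9409 to 12118 in WT fat (log2 fold change -0.90, SE 0.15, limma adjusted p = 0.00343). Neither gene had overlapping groups. Acaa2, the thiolase that cleaves the chain, had 3758 to 5408 in KO fat and 4360 to 5523 in WT fat, and its log2 fold change of -0.24 (SE 0.16) did not pass (limma adjusted p = 0.272).

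Hadha and Hadhb encode the alpha and beta subunits of the mitochondrial trifunctional protein, which performs the same steps on long chains. Hadha had 10776, 11700, 11198 and 10653 normalised reads in KO fat, against 9653, 8585 and 7861 in WT fat. All KO values were above all WT values, but the log2 fold change of 0.35 (SE 0.12) missed the threshold (limma adjusted p = 0.0504) and passed after rescaling by TMM factors (adjusted p = 0.0488). Hadhb had 1224, 1000.1, 1036 and 932 in KO fat, against 1058 to 1302 in WT fat, with overlap and a log2 fold change of -0.13 (SE 0.13, limma adjusted p = 0.483). The ratio of Hadha to Hadhb reads was 8.80 to 11.7 in KO fat and 6.59 to 8.94 in WT fat.

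Both genes of the trifunctional protein lie head to head on mouse chromosome 5 of GRCm38 in GENCODE M21, Hadha at chr5:30118304-30155162 on the minus strand and Hadhb at chr5:30155248-30184593 on the plus strand. Their GENCODE start sites are 86 bases apart. Their RefSeq start sites, from which the windows were taken, are 273 bases apart, and the Hadha window printed above shares 228 bases with that of Hadhb. Per kilobase of exon, Hadha stood at 1269 normalised reads in KO fat and 997 in WT fat, and Hadhb at 159 in KO fat and 174 in WT fat. The exon lengths used, merged over all annotated transcripts, were 8.73 kb for Hadha and 6.595 kb for Hadhb.

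Unsaturated chains need helper enzymes that shift or remove double bonds. Eci1, the mitochondrial enoyl-CoA isomerase, had 1267, 944, 1160.3 and 986 normalised reads in KO fat, against 1914, 2132 and 2666 in WT fat (log2 fold change -1.03, SE 0.16, limma adjusted p = 0.0023). Eci2, an isomerase of peroxisomes and mitochondria, had 1617 to 1996 in KO fat and 2256 to 2981 in WT fat, a fall of 0.54 on the log2 scale (SE 0.13, limma adjusted p = 0.0139). Decr1, the mitochondrial dienoyl-CoA reductase, had 4539 to 5779 in KO fat and 7995 to 8981 in WT fat (log2 fold change -0.78, SE 0.13, limma adjusted p = 0.00283). Decr2, its peroxisomal counterpart, had 722 to 875 in KO fat and 749 to 893 in WT fat, with a log2 fold change of -0.07 (SE 0.13, limma adjusted p = 0.701). The 95% confidence interval of KO over WT was 0.778 to 1.17 for Decr2 and 0.477 to 0.71 for Decr1, and the difference between the genes was not tested. Acot2, a mitochondrial thioesterase that frees fatty acids from CoA, had 164 to 196 in KO fat and 154 to 296 in WT fat and did not pass (log2 fold change -0.23, SE 0.23, limma adjusted p = 0.469).

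**Figure D2:**
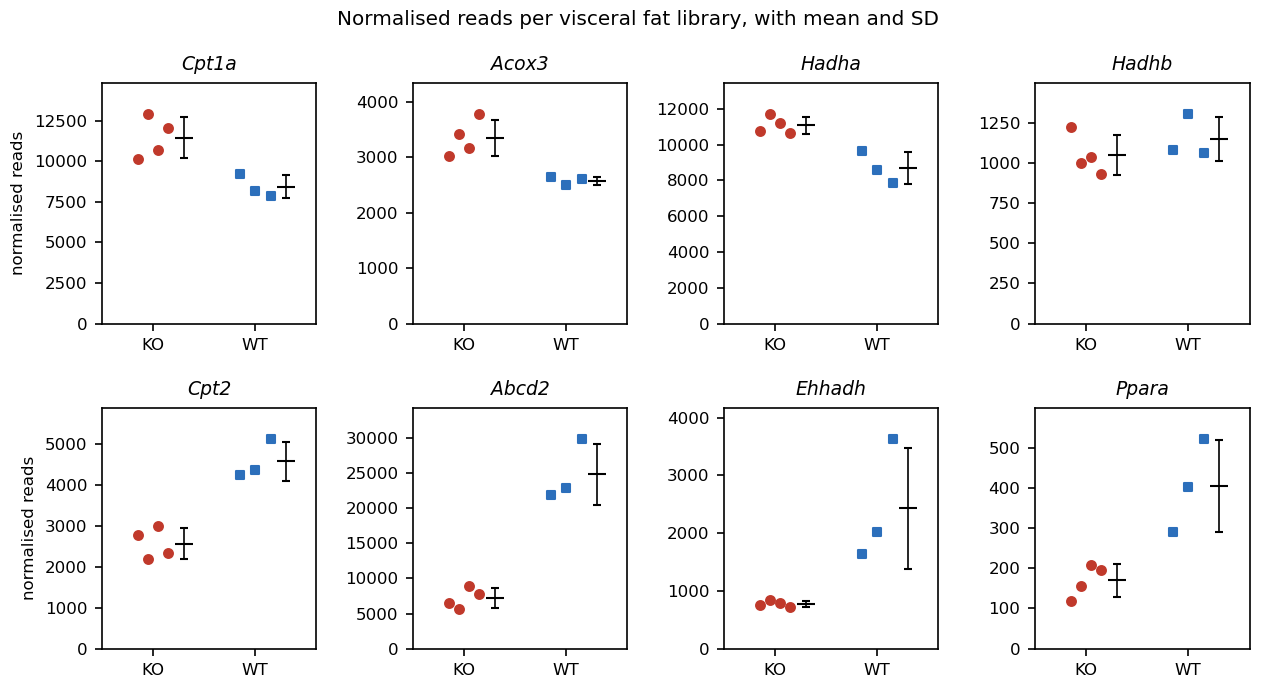
Normalised reads in each visceral fat library for 8 members, with 4 KO libraries as circles and 3 WT libraries as squares, and the group mean with SD beside them. Axes start at 0 and differ between panels; Cpt1a, Acox3 and Hadha sit higher in KO, Hadhb overlaps, and Cpt2, Abcd2, Ehhadh and Ppara sit lower in KO.

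Peroxisomal import showed the largest fall of all members. Abcd2, a transporter of very long and unsaturated acyl-CoA that is rich in adipose tissue (chr15:91145871-91191799, minus strand of GRCm38), had 6439.9, 5656, 8955 and 7765 normalised reads in KO fat, against 21908, 22824 and 29838 in WT fat. The groups were far apart, and the level was 3.47 times lower in KO fat, a log2 fold change of -1.79 (SE 0.19, limma adjusted p = 0.000982). Abcd3, which imports branched chains and dicarboxylic acids, had 3289 to 3940 in KO fat and 4772 to 5061 in WT fat (log2 fold change -0.46, SE 0.11, limma adjusted p = 0.0108). The ratio of Abcd2 to Abcd3 reads was 1.63 to 2.49 in KO fat and 4.59 to 5.90 in WT fat.

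Inside the peroxisome, Ehhadh, the L-bifunctional enzyme (chr16:21761287-21787807, minus strand), had 756, 834, 784 and 719 normalised reads in KO fat, against 1641, 2018 and 3626 in WT fat (log2 fold change -1.57, SE 0.24, limma adjusted p = 0.00244). The KO libraries were tightly grouped, while the WT column numbered 4 stood above the other WT libraries. Hsd17b4, the D-bifunctional enzyme for the same steps, had 10193, 9564, 11363 and 10061 in KO fat, against 17354, 14957 and 14497 in WT fat (log2 fold change -0.60, SE 0.13, limma adjusted p = 0.00858). Acaa1a, the peroxisomal thiolase, had 2278, 1784, 1569 and 1516 in KO fat, against 2157, 2754 and 2852 in WT fat. Its groups overlapped through KO replicate 1, and its call (log2 fold change -0.54, SE 0.17, limma adjusted p = 0.0386) was lost in 5 of the 7 fits without 1 library.

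Acox3, an oxidase that starts the breakdown of branched chains (chr5:35583040-35615352, plus strand of GRCm38), went the other way, with 3030.1, 3425, 3160 and 3775 normalised reads in KO fat, against 2638, 2494 and 2598 in WT fat. All KO values exceeded all WT values, a log2 fold change of 0.37 (SE 0.11, limma adjusted p = 0.0304), and this call was lost when KO replicate 2 or 4 or WT column 3 or 4 was left out, with an adjusted p of up to 0.117. The ratio of Acox3 to Ehhadh reads was 4.01 to 5.25 in KO fat and 0.717 to 1.61 in WT fat. Acox2, the related oxidase of bile acid precursors and branched chains, had 1.10, 2.16, 6.36 and 10.1 in KO fat, against 1.72, 3.91 and 25.8 in WT fat and was not tested.

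Ppara, the regulator in the set (chr15:85734983-85802819, plus strand of GRCm38), had 119, 156, 208 and 196 normalised reads in KO fat, against 291, 402 and 522 in WT fat. No KO value reached the lowest WT value, and Ppara fell (log2 fold change -1.24, SE 0.26, limma adjusted p = 0.00803).

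**Figure D3:**
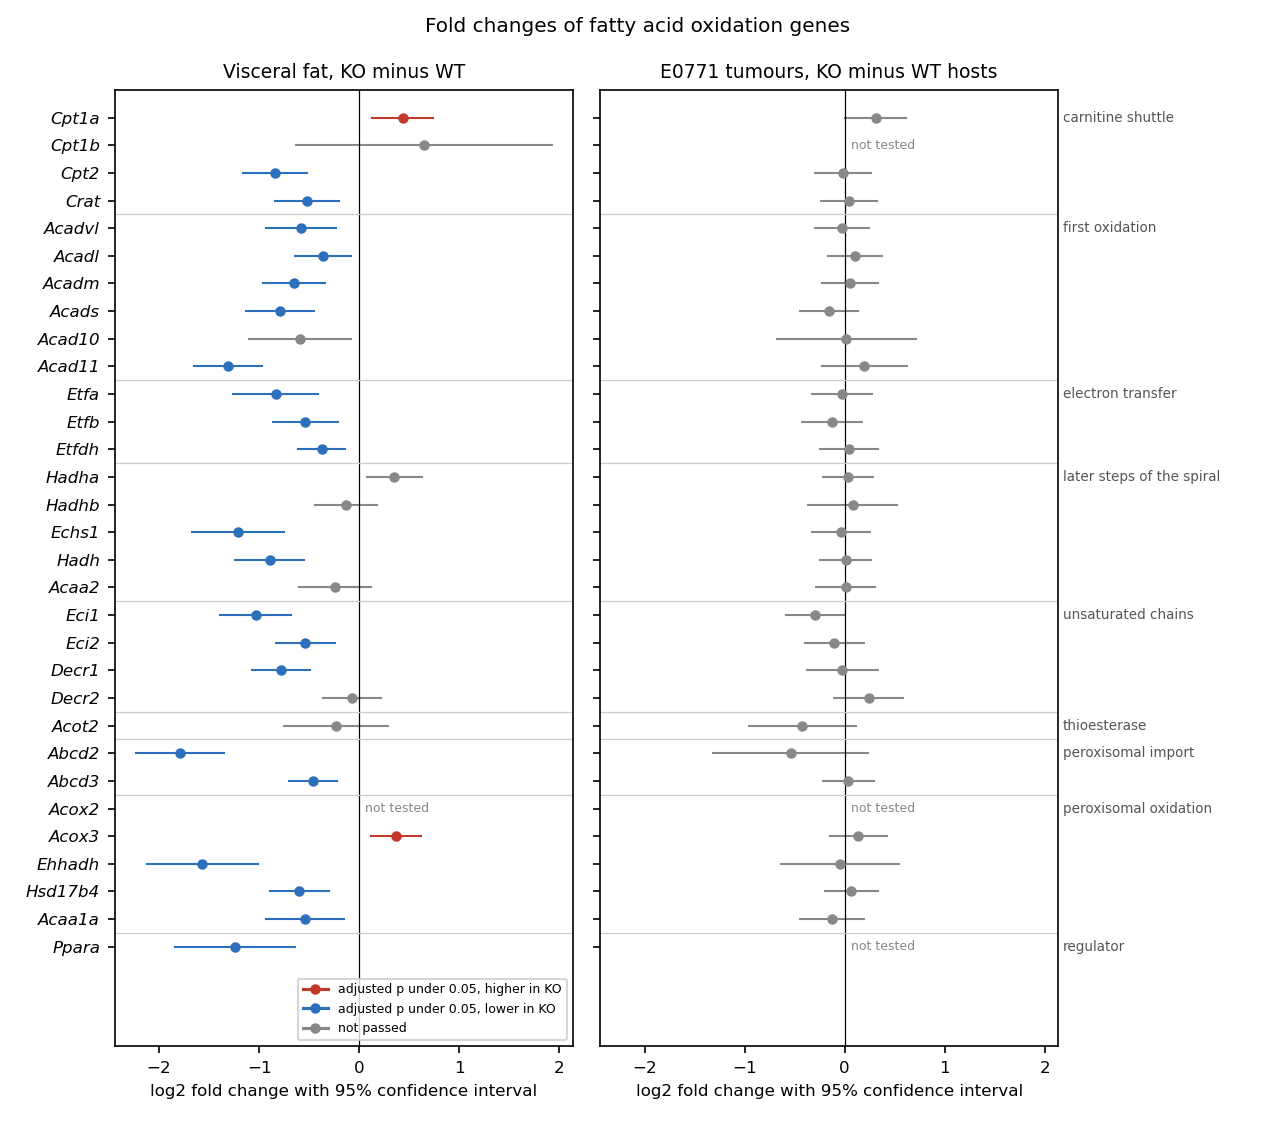
Log2 fold change, KO minus WT, of each member with its 95% confidence interval, for visceral fat on the left (limma) and E0771 tumours on the right (edgeR), on 1 scale. In fat 21 members lie left of 0 and pass and 2 lie right of 0 and pass, while in tumours none passes and 23 of 28 lie within 0.2 of 0.

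Levels per kilobase of exon put Etfb, Acadl, Hsd17b4 and Abcd2 at the top of WT fat. Exon length here merges the exons of all annotated transcripts of a gene and can exceed that of any 1 transcript. Echs1, for example, was divided by 8.286 kb and stood at rank 17 in WT fat. The ranks therefore depend on the annotation. On this scale Etfb averaged 3579 ± 628 (SD, n = 4) normalised reads per kilobase in KO fat and 5144 ± 238 (SD, n = 3) in WT fat. Acadl averaged 3959 ± 391.7 in KO fat and 5071 ± 239 in WT fat, and the ranges of Etfb and Acadl overlapped in both groups, so their order is not set. Abcd2 averaged 1212 ± 245 in KO fat and 4180 ± 730 in WT fat, which placed it at rank 13 of the 31 members in KO fat and rank 4 in WT fat. Cpt1a moved the other way, with 1495 ± 165 per kilobase and rank 8 in KO fat, and 1102 ± 93.5 and rank 14 in WT fat. Cpt1b and Acox2 were the lowest members in both groups.

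**Figure D4:**
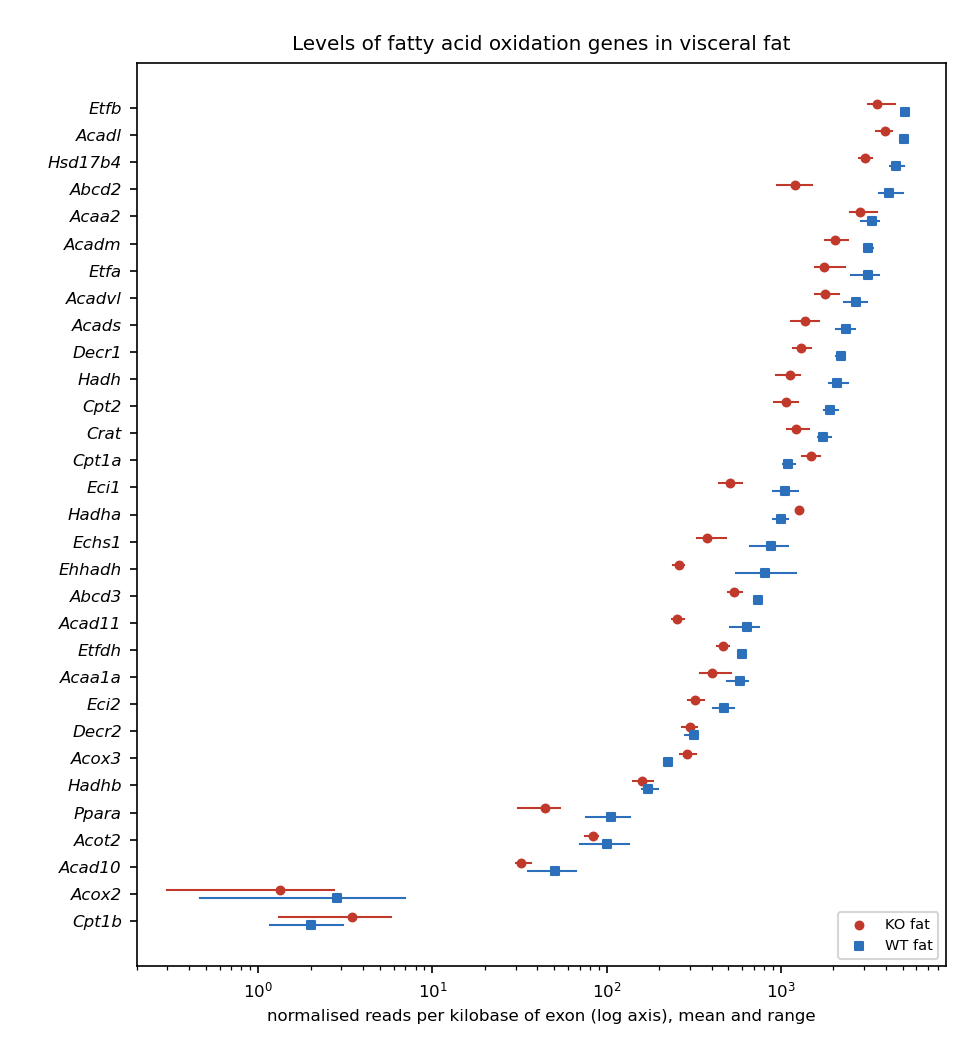
Normalised reads per kilobase of exon in visceral fat on a log axis, with the mean as a circle (KO, 4 libraries) or square (WT, 3 libraries) and the range as a line, for the 31 members ordered by the WT mean. Abcd2 stands at 1212 in KO and 4180 in WT, while Cpt1a stands at 1495 in KO and 1102 in WT.

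Libraries of 1 group also differed among themselves. Among the 30 tested members, KO replicate 1 had the highest KO value in 15, while KO replicate 2 and KO replicate 4 had the lowest in 12 each. Among the 21 that fell, the WT column numbered 4 had the highest WT value in 17 and the WT column numbered 1 the lowest in 17. Over the tested members, the median log2 difference from the WT mean was -0.42, -0.67, -0.49 and -0.69 in KO replicates 1 to 4, against -0.15, -0.01 and 0.16 in the WT columns numbered 1, 3 and 4.

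Other genes of the pathway, 61 in all, were read from the same fit. Of them, 30 fell, 4 rose and 27 did not pass, with a median log2 fold change of -0.48. Over all tested genes, 17.4% were called lower and 16.8% higher, which also stands beside the smaller lists below. Among 15 other mitochondrial acyl-CoA genes, 11 fell, 1 rose and 3 did not pass. Acadsb, the dehydrogenase of short branched chains, fell by 1.41 on the log2 scale (SE 0.16, limma adjusted p = 0.00106). Mut and Pcca, which process propionyl-CoA, fell by 1.28 and 1.27 on the same scale. The 1 that rose was Ucp2, an inner-membrane carrier, with a log2 fold change of 1.66 (SE 0.28, limma adjusted p = 0.0032).

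Of 20 other peroxisomal genes, 12 fell, 1 rose and 7 did not pass. Pex11a, which acts in peroxisome division, had 260.0 to 326 normalised reads in KO fat and 651 to 692 in WT fat, a fall of 1.21 on the log2 scale (SE 0.13, limma adjusted p = 0.000982). Phyh, which starts the alpha-oxidation of phytanic acid, fell by 1.13 (SE 0.17, limma adjusted p = 0.00212), and Acaa1b, a near copy of Acaa1a, fell by 0.95 (SE 0.12, limma adjusted p = 0.00131) on the same scale.

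Of 13 genes of uptake, activation and entry, 3 fell, 1 rose and 9 did not pass. With 17.4% of all tested genes called lower and 16.8% higher, these counts do not set the 13 apart. Mlycd, which removes the malonyl-CoA that restrains Cpt1a, fell by 0.43 on the log2 scale (SE 0.11, limma adjusted p = 0.0188). Fabp3, a fatty acid binding protein of muscle, was the 1 that rose (log2 fold change 1.57, SE 0.41, limma adjusted p = 0.0201). Its values were 18.2 to 30.9 normalised reads in KO fat and 3.91 to 9.46 in WT fat. Fabp3 passed the filter for low genes only through KO fat, where it was high, so its call carries no weight. Slc25a20, the carrier that moves acylcarnitine between Cpt1a and Cpt2, had a log2 fold change of -0.29 (SE 0.11) and did not pass (limma adjusted p = 0.0712). Of 13 regulators and their targets, 4 fell, 1 rose and 8 did not pass. Rxra, the partner receptor of PPAR-alpha, fell by 1.07 on the log2 scale, and Pparg, the adipocyte member of the PPAR family, fell by 0.97. Ppargc1a, a coactivator of mitochondrial genes, had a log2 fold change of -0.89 (SE 0.40) and Pdk4, a PPAR target, one of 0.19 (SE 0.33), and neither passed (limma adjusted p = 0.115 and 0.677). The 1 regulator or target that rose was Fgf21, with a log2 fold change of 1.11 (SE 0.36, limma adjusted p = 0.0431). Of 13 general mitochondrial genes, such as those of the respiratory chain and the import pore, 5 fell, 1 rose and 7 did not pass, with a median of -0.35.

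Cell type markers moved in the same libraries. Of 13 adipocyte markers, 12 fell and 1 did not pass, with a median log2 fold change of -1.89, and their summed level was 601749 to 812331 normalised reads in KO fat and 1550155 to 1814891 in WT fat. Adipoq, the adiponectin gene, had 18358 to 31684 in KO fat and 100179 to 126791 in WT fat. Of 15 macrophage markers, 14 rose and 1 did not pass, with a median of 1.89, and their summed level was 381562 to 543436 in KO fat and 68892 to 208207 in WT fat. All 8 endothelial markers fell, and 2 of 6 fibroblast markers rose. No adipocyte or macrophage marker was at 0 throughout a group, and Fabp4 stood on both the adipocyte list and the uptake list. In bulk tissue, fewer cells of a type and less RNA per cell cannot be told apart, and the part of these markers in the changes of the oxidation genes was not tested.

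Members and adipocyte markers ranked the WT columns in the same order and the KO libraries in different orders. The reason was not tested. The median adipocyte marker lay -1.96, -2.25, -1.40 and -1.83 from the WT mean on the log2 scale in KO replicates 1 to 4, against -0.22, -0.01 and 0.28 in the WT columns numbered 1, 3 and 4. Thermogenic markers of brown and beige fat summed to 377 to 612 normalised reads in KO fat and 422 to 549 in WT fat, with overlap, and 2 of 6 rose. Markers of other tissues were read too. Of 5 male germ cell markers 1 was tested and fell, and of 7 skeletal muscle markers 3 were tested and 1 fell. The tested germ cell marker had 0 to 1.08 normalised reads in KO fat and 25.8 to 282 in WT fat. It passed the filter only through WT fat, where it was high, so its call carries no weight. All 5 liver markers were tested, 0 passed and the groups overlapped in all 5. Male germ cell markers summed to 0 to 3.63 in KO fat and 42.3 to 590.1 in WT fat, and skeletal muscle markers to 286 to 458 in KO fat and 535 to 1329 in WT fat. The 5 liver markers summed to 332 to 2811 in KO fat, against 888, 625 and 7549 in the WT columns numbered 1, 3 and 4. The last of these was also the highest WT library for Ehhadh, Echs1 and Ppara, and without it their log2 fold changes were -1.24, -1.03 and -1.04, and all 3 were still called. Their part in the results was not tested.

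**Figure D5:**
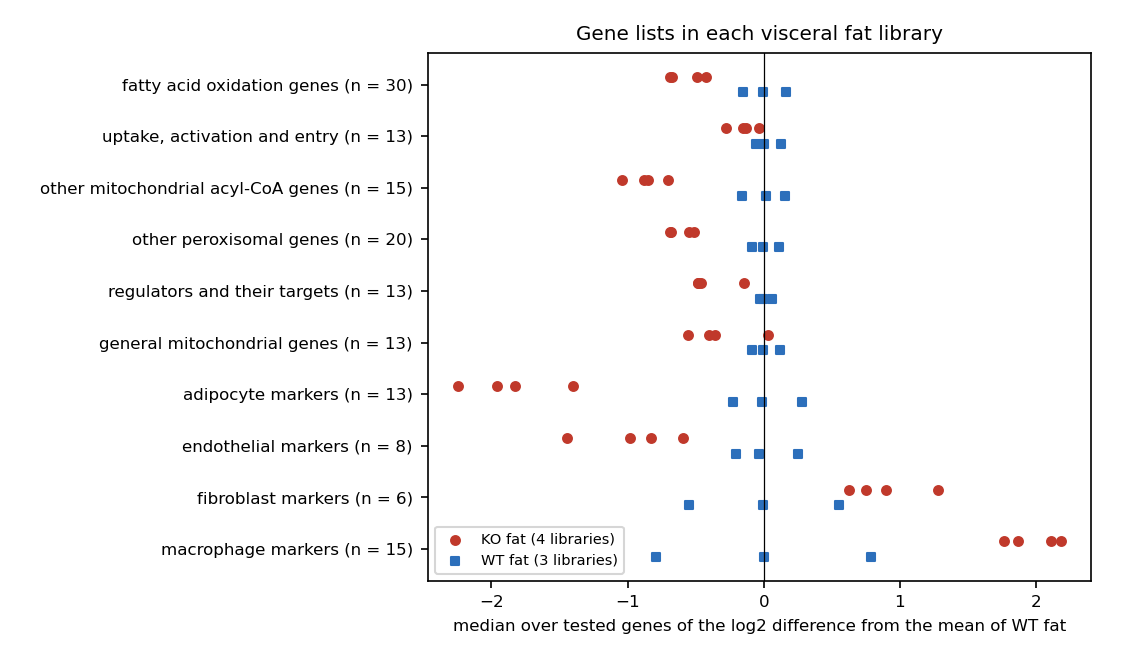
For each gene list, the median over its tested genes of the log2 difference from the WT mean in each visceral fat library, with 4 KO libraries as circles and 3 WT libraries as squares. Fatty acid oxidation genes lie at -0.69 to -0.42 in KO, adipocyte markers at -2.25 to -1.40 and macrophage markers at 1.77 to 2.18.

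In E0771 tumours, no gene of fatty acid oxidation passed between KO and WT hosts. Of 28 members tested with edgeR's quasi-likelihood test, 0 were called, as were 0 of 13109 genes (0%). At an unadjusted p under 0.05, 1 member was higher, against 497 of all tested genes (3.79%), and 0 were lower, against 408 (3.11%). DESeq2 called 0 members and 51 of 14318 genes (0.356%). The median log2 fold change of the members was 0.01, and 23 of the 28 lay within 0.2 of 0. KO and WT values overlapped in 25 members, with 2 wholly higher in KO hosts, against 5.68% of all tested genes, and 1 wholly lower, against 4.93%.

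Cpt1a had the smallest p of the members, with 2348, 1946 and 2100.4 TMM-normalised reads in tumours of KO hosts, against 1762, 1468 and 1926 in tumours of WT hosts. Its lowest KO value was just above its highest WT value, and its log2 fold change of 0.31 (SE 0.14) had an unadjusted edgeR quasi-likelihood p of 0.0446 and an adjusted p of 0.714. Acox3 had 779.9, 743 and 738 in KO hosts, against 668, 664 and 725 in WT hosts (log2 fold change 0.14, SE 0.13, edgeR adjusted p = 0.858). Eci1 had 1158, 1163 and 1166 in KO hosts, against 1617, 1421 and 1236 in WT hosts (log2 fold change -0.29, SE 0.13, edgeR adjusted p = 0.726). Among the 28 tested members these 3 had no overlap, and whether the effects differed between fat and tumours was not tested.

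Abcd2 was scarce in tumours, with 32.0, 67.5 and 49.4 TMM-normalised reads in KO hosts, against 67.0, 75.4 and 72.5 in WT hosts, and a log2 fold change of -0.54 (SE 0.35, edgeR adjusted p = 0.804). Decr2 and Acot2, the remaining members named for their p, had log2 fold changes of 0.24 (SE 0.16) and -0.42 (SE 0.24), and neither passed (edgeR adjusted p = 0.809 and 0.791). Ppara had 0, 0 and 0 raw counts in KO hosts, against 0, 1 and 5 in WT hosts, and Cpt1b had 8, 8 and 5 in KO hosts, against 0, 4 and 0 in WT hosts. The Cpt1b values did not overlap, but both genes were too low to be tested, as was Acox2. Adipoq had 3.37 to 6.37 normalised reads in tumours of KO hosts and 0 to 6.51 in tumours of WT hosts, so the adipocyte hormone gene was near 0 in these tumours.

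Reads may be shared or misassigned at some members. Overlaps are given over whole gene spans, introns included, so the shared exon sequence can be smaller. Annotated protein-coding genes overlap 3 of them on the same strand, which no strand setting resolves. Gm28305 overlaps Acad11 over 12503 bases and Gm45233 overlaps Etfb over 13673 bases. Gm44502 overlaps Cpt1b over 9459 bases, the whole span of Cpt1b. The strand setting of the counting is not given in the sources used here, which bears on genes that overlap on opposite strands. On the opposite strand, among others, Acad11 overlaps Ackr4 over 42777 bases and Eci2 overlaps an antisense gene, Gm16984, over 12705 bases. Echs1 overlaps Paox on the opposite strand over 678 bases, Acadvl overlaps Dvl2 over 2119 bases, and Acox3 overlaps an antisense gene, 4931431C16Rik, over 5724 bases. Acaa1a overlaps Slc22a14 over 10624 bases and Myd88 over 1736 bases on the opposite strand. It also has a near copy in Acaa1b, and Acot2 belongs to a family of similar genes. The values of these members are uncertain to that extent.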

How the data were processed

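RNA was taken up in Trizol and made into libraries with a stranded mRNA kit, per the labels' protocols. CASAVA, TopHat, DESeq2 and the build mm10 are named in the submitters' processing notes; versions, roles, annotation and counting tool are not given in the sources used here. The tumour table holds deposited read counts per gene, unnormalised. Its 5 summary lines, 66.7% to 72.2% of all entries, were left out. Most of these were alignments that were not unique, 59.1% to 63.8% of all entries. The fat table holds a deposited signal per gene, counts scaled by 1 factor per library: 117220 of 117220 values above 0 were whole multiples of their column's step within 0.001. edgeR on these recovered reads called 4898 genes in fat, 22 of them members.

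Fat values were tested with limma 3.58.1 (R 4.3.3, trend) on log2(value + 1), keeping genes that reached 10 in 3 libraries or more; this scale understates changes of low genes. Tumour counts were tested with edgeR 4.0.16 (TMM, filterByExpr, quasi-likelihood); DESeq2 1.42.0 was an alternative. Tests were two-sided, KO minus WT, with Benjamini-Hochberg adjustment over all tested genes at 0.05. Depth was 22834259 to 41534662 gene reads per library. The scripts were tested on simulated data. Pairs of replicates differed well beyond sampling noise (chi-square per degree of freedom 24.2 to 235), so none was merged. WT fat columns numbered 1, 3 and 4 could be tied to the WT group but not to single samples.

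The members and lists were chosen with earlier results of these data known. All 31 members were accounted for in fat; in tumours the 3 of smallest p in each direction, Cpt1a and Ppara were named; elsewhere up to 3 genes per list of smallest p plus genes fixed by name. Ucp2 and Fgf21, each the 1 gene of its list that rose, fall outside this rule and were chosen after their values were seen. The results of some genes are not reported here. Exon lengths, merged over all transcripts of a gene, and positions came from GENCODE M21 on GRCm38, promoters from RefSeq.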

Additional observations from a re-analysis of the deposited data

Results flagged for a closer look

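In the 31 members examined over the 4 KO fat libraries, KO replicate 1 stood apart in both subunits of the electron transfer flavoprotein. Etfa had 4304 normalised reads there, against 2878 to 2926 in the other KO libraries, and Etfb had 5251, against 3663 to 3891. Chance sets apart about 1 in 20 groups, and 31 members were examined. KO replicate 1 also stood above the other KO libraries in the 13 general mitochondrial genes. Their median log2 difference from the WT mean was 0.03 there, against -0.40, -0.36 and -0.55 in KO replicates 2 to 4. Etfa and Etfb were both still called without KO replicate 1.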

How the results depend on the processing

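Results were recomputed in fat with pseudocounts of 5 and 0.5, no filter, TMM rescaling and edgeR on recovered reads, in tumours with RLE size factors, no filter and DESeq2, and in both with a replicate block and with each library left out. Over the fat members and these alternatives, 356 values kept their direction and side of the threshold, 59 lost their call, 4 gained one and 1 changed sign; in tumours, all 60 values of the named members kept both. Without filter, after TMM rescaling and with edgeR, Acadl lost its call; Hadha gained one after TMM rescaling. Leaving out 1 fat library gave 14 to 24 called members, of which 14 to 21 were lower and 0 to 3 higher, and 3065 to 5193 called genes, of which 1490 to 2567 were lower and 1575 to 2691 higher, each count of genes lowest without the WT column numbered 3; the median of the members was -0.65 to -0.47. Acot2 ranged from -0.46 to 0.0088 on the log2 scale, changing sign without the WT column numbered 4.

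Deviations of same-numbered libraries correlated at -0.01, 0.06 and 0.25 in fat and at -0.22, 0.01 and -0.22 in tumours. These values cannot settle whether the libraries were paired. Differently numbered libraries were not compared, and the WT fat columns could not be tied to single samples. The replicate block over the fat columns numbered 1, 3 and 4 gave 10 called members, 10 lower and 0 higher, and 2905 genes, 1475 lower and 1430 higher. The same 6 columns without the block, a choice made after seeing the data, gave 15 called members and 0 higher. In tumours no filter gave 22 called genes, 1 lower and 21 higher, DESeq2 gave 51, 10 lower and 41 higher, and leaving out 1 library gave 0 to 21, of which 0 to 11 were lower and 0 to 10 higher (21 without WT replicate 3 and 9 without KO replicate 3); no member was called under any of these. The causes were not tested. Members near the floor (Cpt1b, Acox2, and Ppara in tumours) are limited by depth, and Cpt1b may also lose reads to the gene that overlaps it.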
